A study of Drosophila melanogaster with 37 samples.

Results

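The Enhancer of split bHLH genes are the 7 genes that the study's transcription unit (TU) annotation lists on chromosome arm 3R under the names E(spl)mdelta-HLH, E(spl)mgamma-HLH, E(spl)mbeta-HLH, E(spl)m3-HLH, E(spl)m5-HLH, E(spl)m7-HLH and E(spl)m8-HLH. They were taken by name, as 7 of the 17698 genes that the annotation holds in 15991 TUs. The list of names was made with earlier results of these data known. A TU is a stranded interval, in build dm6, that holds 1 gene or several merged genes. All 7 names were found, each in a TU of its own.

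The study profiled RNA polymerase II by mNET-seq, in which polymerase is immunoprecipitated from chromatin and the nascent RNA it carries is sequenced. Its 37 samples came from Drosophila melanogaster embryos of stage 15, sorted by sex, and covered total polymerase (14 samples) and polymerase phosphorylated on its C-terminal domain at serine 5 (15 samples) or serine 2 (8 samples). For each antibody there were male and female embryos with a control RNAi and male and female embryos depleted of maternal mof by UAS-mof RNAi, 12 groups of 2 to 4 samples in all, each preparation from 6000 embryos. The gene mof encodes a histone H4 acetyltransferase of the dosage compensation complex, and the driver of the RNAi is not named in the labels. Polymerase signal over these genes was not analysed here, so no value below is a level of transcription, no knockdown effect or sex difference was tested, the sequencing depth is unknown and the tissue could not be checked against marker genes.

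Genes of this complex are classic targets of the Notch receptor. When Notch is activated by a ligand on a neighbouring cell, its cleaved intracellular part joins the DNA-binding protein Su(H) and switches these genes on. Their products are basic helix-loop-helix (bHLH) repressors of the Hairy and Enhancer of split type, which recruit the corepressor Groucho and block the proneural genes of the achaete-scute class, so that the cell does not become a neural precursor. Most genes of the complex are compact and lack introns, and many respond to Notch within minutes, which makes their nascent RNA a close readout of signalling.

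The 7 bHLH genes lay in 43388 bp of 3R, from 25997621 to 26041008, interleaved with 10 other TUs. Along the arm the order was E(spl)mdelta-HLH, E(spl)mgamma-HLH, E(spl)mbeta-HLH, E(spl)m3-HLH, E(spl)m5-HLH, E(spl)m7-HLH and E(spl)m8-HLH. On the plus strand lay 5 of them, and E(spl)mbeta-HLH and E(spl)m5-HLH lay on the minus strand. Of the 6 pairs of neighbouring bHLH genes, 2 ran in tandem, 2 converged and 2 diverged.

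**Figure D1:**
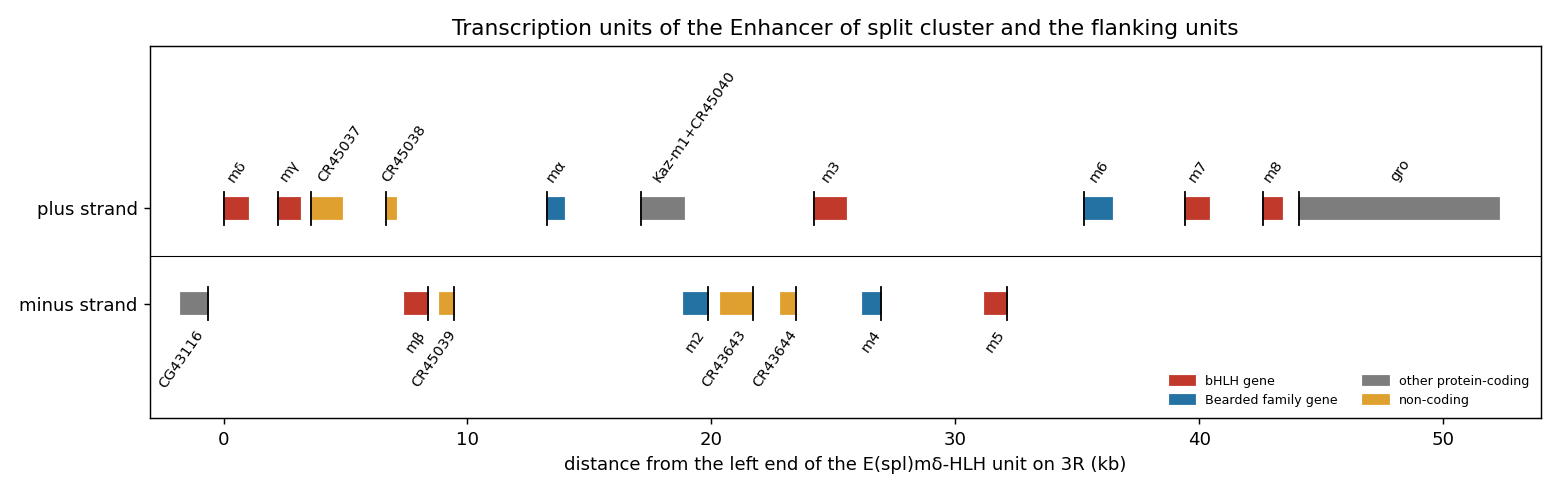
The 17 TUs of the Enhancer of split span and the nearest TU on each side, drawn to scale in kb from the left end of E(spl)mdelta-HLH, with plus-strand units above the line and minus-strand units below, coloured by class. Vertical black ticks mark the start of each unit, and the prefix E(spl) is left out of the names. The bHLH genes are spread along the whole span, with the widest stretch between them from E(spl)mbeta-HLH to E(spl)m3-HLH.

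E(spl)mdelta-HLH (FBgn0002734) opened the cluster on the lower-coordinate side, from 25997621 to 25998633 on the plus strand, 1013 bp long. In the developing eye its activity is known as a marker of the R4 photoreceptor. Its start looked onto CG43116, a minus-strand gene outside the cluster, across 624 bp. E(spl)mgamma-HLH (FBgn0002735) followed on the same strand after 1217 bp with no TU between them, from 25999851 to 26000761, 911 bp long. Its product is known for its presence in larval neural stem cells. Its end was followed after 439 bp by the non-coding TU of CR45037 on the same strand.

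E(spl)mbeta-HLH (FBgn0002733) occupied 26005046 to 26006023 on the minus strand, 978 bp. It was the most tightly flanked of the 7, with 478 bp before its start, up to CR45039, and 364 bp after its end, up to CR45038. Both of these neighbours are non-coding.

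E(spl)m3-HLH (FBgn0002609) occupied 26021823 to 26023127 on the plus strand and was the longest of the 7 at 1305 bp. Before its start lay 746 bp, up to the minus-strand non-coding TU of CR43644, and after its end lay 693 bp, up to the minus-strand gene E(spl)m4-BFM. Its nearest TU on its own strand was the merged unit of Kaz-m1 and CR45040, 5335 bp away, the widest same-strand distance among the 7.

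E(spl)m5-HLH (FBgn0002631), E(spl)m7-HLH (FBgn0002633) and E(spl)m8-HLH (FBgn0000591), whose products are known to bind the kinase CK2, formed the higher-coordinate end of the group. E(spl)m5-HLH ran on the minus strand from 26028854 to 26029735, 882 bp, and had the most room of the 7 on both sides, 3175 bp before its start and 4274 bp after its end. E(spl)m7-HLH ran on the plus strand from 26037038 to 26038019, 982 bp, with 2990 bp before its start and 2220 bp after its end. The gene at the end of those 2220 bp was E(spl)m8-HLH, the site of the dominant split-enhancing mutation that named the complex. It ran on the plus strand from 26040240 to 26041008 and was the shortest of the 7 at 769 bp. After its end, 727 bp separated it from gro, which encodes Groucho, on the same strand.

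Distances between neighbouring bHLH genes were uneven, from 1217 bp to 15799 bp between edges (median 5005 bp, n = 6 pairs). The tandem pairs at each end of the group were the closest, E(spl)mdelta-HLH with E(spl)mgamma-HLH at 1217 bp and E(spl)m7-HLH with E(spl)m8-HLH at 2220 bp, and no TU lay inside either pair. The convergent pair of E(spl)mgamma-HLH and E(spl)mbeta-HLH was 4284 bp apart with 2 non-coding TUs between. The convergent pair of E(spl)m3-HLH and E(spl)m5-HLH was 5726 bp apart, with E(spl)m4-BFM between. The divergent pair of E(spl)m5-HLH and E(spl)m7-HLH was 7302 bp apart, with E(spl)m6-BFM between. The remaining divergent pair, E(spl)mbeta-HLH and E(spl)m3-HLH, was 15799 bp apart and enclosed 6 TUs.

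The other TUs of the span fell into 4 of the Bearded family, 5 non-coding units and 1 unit that merged Kaz-m1 with a non-coding gene. Bearded family proteins bind the ubiquitin ligase Neuralized and hold back the signalling activity of the ligand Delta, and these genes are Notch targets as well. E(spl)malpha-BFM measured 676 bp (26010893 to 26011568, plus strand). E(spl)m2-BFM measured 957 bp (26016514 to 26017470, minus strand), and E(spl)m4-BFM measured 759 bp (26023821 to 26024579, minus strand). E(spl)m6-BFM measured 1137 bp (26032911 to 26034047, plus strand). Their median of 858 bp lay inside the range of the bHLH genes, and each held 1 transcript.

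Kaz-m1, which encodes a protein of the Kazal protease inhibitor type and was formerly named E(spl)m1, shared its TU with CR45040, and the other 16 TUs of the span held 1 gene each. The shared unit, from 26014721 to 26016487 on the plus strand, was the longest of the span at 1767 bp and carried 3 transcripts. In the RefSeq gene table it holds lncRNA:CR45040, 972 bp long, whose end at 26016487 is also the end of Kaz-m1. Signal summed over this TU cannot be assigned to either gene. Its end faced the end of E(spl)m2-BFM across 26 bp, the smallest gap in the span.

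The 5 units without a protein-coding gene were all listed as lncRNA in RefSeq and measured 404 to 1283 bp. On the plus strand lay CR45037 (1264 bp) and CR45038 (404 bp), and on the minus strand lay CR45039 (572 bp), CR43643 (1283 bp) and CR43644 (598 bp). Of the 10 other TUs, 5 lay less than 1000 bp from a bHLH gene, and 4 of these were non-coding. The nearest TU was non-coding for E(spl)mgamma-HLH and E(spl)mbeta-HLH and protein-coding for the other 5. All 5 non-coding units lay in the left part of the cluster, before E(spl)m3-HLH, and 0 lay between E(spl)m3-HLH and E(spl)m8-HLH, as the map of the cluster shows.

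Every bHLH gene stood alone in its TU with 1 transcript and shared no base with a TU of the opposite strand. For comparison, 12927 further TUs on the X, 2L, 2R, 3L and 3R contained a gene that codes for protein (the other protein-coding TUs below). All 7 bHLH units held 1 gene, as did 91.6% of the other protein-coding TUs. A single transcript was listed for 7 of 7, against 47.0%. TUs that shared 1 bp or more with the opposite strand numbered 0 of 7, against 39.8%. The same held for the other TUs of the span, since 0 of all 17 overlapped another. The labels mention coverage summed over both strands, and within this span each annotated base belongs to 1 strand only. These shares describe a census of the annotation, in which neighbouring genes of 1 family are not independent, so no test was made.

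Head-to-head starts close by were not found at these genes. A divergent start is an opposite-strand TU start that lies upstream within 500 bp, and it was present for 0 of 7 bHLH genes against 27.3% of the other protein-coding TUs. The closest facing starts were that of CG43116, 625 bp from the start of E(spl)mdelta-HLH, and that of CR43644, 747 bp from the start of E(spl)m3-HLH. The next opposite-strand start upstream was again that of CG43116, 2855 bp from the start of E(spl)mgamma-HLH, with E(spl)mdelta-HLH lying between. That of E(spl)m6-BFM lay 3176 bp from the start of E(spl)m5-HLH. Within 1000 bp the count was therefore 2 of 7, against 36.6% of the other protein-coding TUs. Among starts of protein-coding TUs alone, only CG43116 lay within 1000 bp. The 36.6% counts facing TUs of any class, so it is no reference for that narrower count. Within 500 bp, the count was also 0 of 4 for Bearded family genes in the cluster and 0 of 4 on 3L. It was 0 of 4 in the achaete-scute complex, 0 of 5 for other bHLH-Orange genes and 5 of 19 for listed Notch pathway genes.

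Most bHLH TUs stood apart from their neighbours when TUs of either strand were counted. No other TU came within 500 bp of either end for 5 of 7 genes, against 19.0% of the other protein-coding TUs, and the exceptions were E(spl)mgamma-HLH and E(spl)mbeta-HLH, both through non-coding neighbours. With a limit of 1000 bp only E(spl)m5-HLH and E(spl)m7-HLH remained, 2 of 7 against 11.4%. The median gap from a bHLH gene to its nearest TU was 693 bp (364 to 3175 bp, n = 7). That of the other protein-coding TUs was 60 bp (interquartile range 0 to 298 bp). To the nearest TU of the same strand the medians were closer. They were 1217 bp for the bHLH genes and 941 bp for the other protein-coding TUs (interquartile range 275 to 2959 bp). The Bearded family genes were alike at 500 bp, with 3 of 4 in the cluster and 4 of 4 on 3L isolated. The same was true of 0 of 4 achaete-scute genes, 1 of 5 other bHLH-Orange genes and 5 of 19 listed Notch pathway genes.

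The stretch before the start, where promoter-proximal control elements lie, was free of other TUs for 478 to 3175 bp (median 1217 bp, n = 7). The other protein-coding TUs had a median of 364 bp there (interquartile range 128 to 1103 bp), and each of the 7 genes had more than that median. The stretch was shortest at E(spl)mbeta-HLH (478 bp), E(spl)mdelta-HLH (624 bp) and E(spl)m3-HLH (746 bp). It was 1217 bp at E(spl)mgamma-HLH and exceeded 2000 bp at E(spl)m5-HLH, E(spl)m7-HLH and E(spl)m8-HLH. That is 3 of 7, against 17.8% of the other protein-coding TUs. After the end, the free stretch ran from 364 to 4274 bp (median 727 bp), against a median of 142 bp elsewhere (interquartile range 0 to 689 bp). At 5 of the 7 genes more space lay before the start than after the end, against 60.6% of the other protein-coding TUs, and the exceptions were E(spl)mdelta-HLH and E(spl)m5-HLH.

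**Figure D2:**
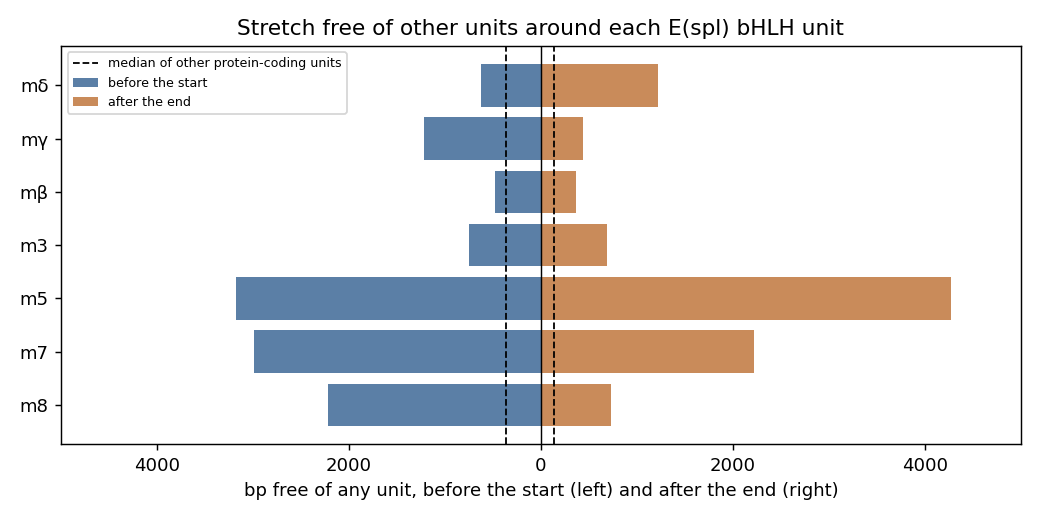
Bars give, for each bHLH gene in chromosomal order from top to bottom, the bp free of any other TU before its start (left) and after its end (right). Dashed lines mark the medians of the other protein-coding TUs, 364 bp before the start and 142 bp after the end. All 14 bars pass their line, and E(spl)m5-HLH has the longest bar on each side. The bars are not all separate stretches. The 1217 bp between E(spl)mdelta-HLH and E(spl)mgamma-HLH and the 2220 bp between E(spl)m7-HLH and E(spl)m8-HLH are drawn for both genes.

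The cluster held many short units and much sequence outside them. The span held 17 TUs, or 39.2 per 100 kb, against 11.9 per 100 kb over 3R as a whole up to its last TU. The span was cut at the outer edges of its first and last bHLH genes, which raises its density. No stretch of like size elsewhere on 3R was compared. TUs covered 37.5% of the span and 72.7% of 3R, where the longest protein-coding TU measured 1965857 bp. The bHLH genes themselves covered 6840 bp, 15.8% of the span. Consecutive TUs of the span were separated by a median of 1193 bp (26 to 4274 bp, n = 16 gaps), against 339 bp on 3R. Gaps of at least 2000 bp made up 6 of 16 (37.5%) in the span and 23.2% on 3R. Gaps were taken in order of start, so on 3R a gap can lie inside a longer TU that covers it. In the span no TUs overlapped, so the 3R values are not strictly the same measure. Orientation followed no fixed pattern: 10 of 16 consecutive pairs ran in tandem (62.5%, against 44.1% on 3R), 3 diverged and 3 converged. Among protein-coding TUs alone the tandem share was 45.5% of 11 pairs in the span and 43.4% on 3R.

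The bHLH genes were short and alike in length. From shortest to longest they were E(spl)m8-HLH (769 bp), E(spl)m5-HLH (882 bp), E(spl)mgamma-HLH (911 bp), E(spl)mbeta-HLH (978 bp), E(spl)m7-HLH (982 bp), E(spl)mdelta-HLH (1013 bp) and E(spl)m3-HLH (1305 bp). The median was 978 bp (mean 977 ± 166 bp, SD over the 7 genes), and the longest was 1.70 times the shortest. The other protein-coding TUs had a median of 2231 bp (interquartile range 1206 to 5207 bp), and 0 of 7 bHLH genes exceeded it. Of those TUs, 11.0% were shorter than E(spl)m8-HLH, the shortest of the 7, and 27.8% were shorter than E(spl)m3-HLH, the longest. Other TUs of 1 gene and 1 transcript, a class to which all 7 bHLH genes belong, had a median of 1446 bp (interquartile range 883 to 2347 bp, n = 6081), and 5 of the 7 bHLH genes lay between the first quartile and the median of that class.

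**Figure D3:**
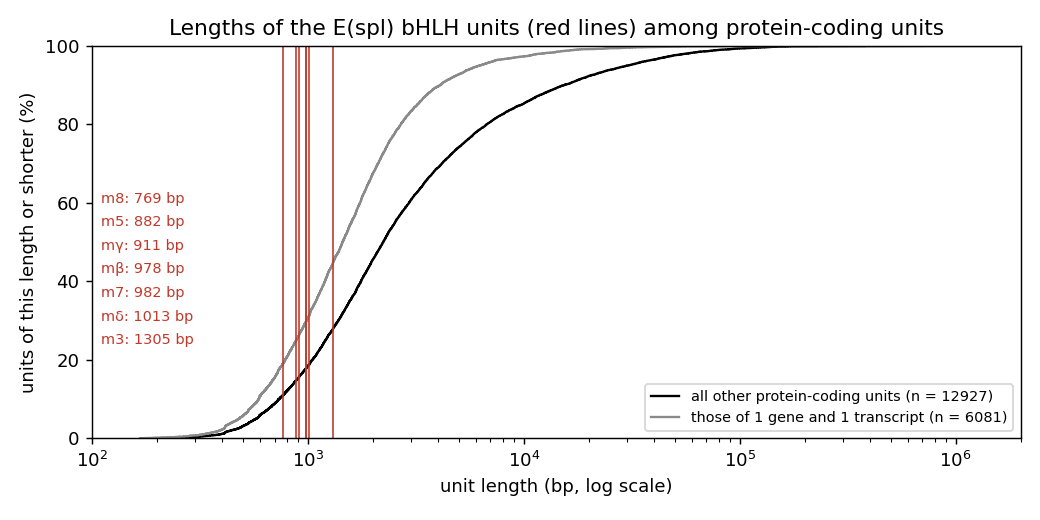
Cumulative share (%) of protein-coding TUs of a given length or shorter, against length in bp on a log scale, for all other protein-coding TUs (black, n = 12927) and for those of 1 gene and 1 transcript (grey, n = 6081). Red lines mark the 7 bHLH genes, all to the left of the black curve's median of 2231 bp.

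Outside the cluster, the listed relatives of the same repressor class were longer. This class, the bHLH-Orange family, has a bHLH and an Orange domain. The list used here held 5 of its other genes, scattered over 4 arms. Each exceeded the longest Enhancer of split bHLH gene, E(spl)m3-HLH. Of the other protein-coding TUs, 27.8% were shorter than that gene, so most of them exceeded it too. The Notch target Hey measured 2841 bp (2R) and Sidpn, a relative of dpn, measured 3071 bp (2L). The neural stem cell repressor dpn measured 3360 bp (2R) and the pair-rule gene h measured 3495 bp (3L). The clock repressor cwo measured 12495 bp (3R). Their median was 3360 bp. Of the 5, 3 had 1 transcript and 0 had a divergent start within 500 bp. The other protein-coding TUs had 47.0% and 27.3%.

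The achaete-scute complex, whose proneural bHLH products the Enhancer of split proteins oppose, gave a second bHLH cluster for comparison. Its genes ac (917 bp), sc (1438 bp), l(1)sc (1097 bp) and ase (2430 bp) were also units of 1 gene and 1 transcript, with a median of 1267.5 bp. They were more widely spaced, over 93146 bp of the X with a median of 25112 bp between edges (12223 to 49929 bp, n = 3 pairs). All 4 lay on the plus strand, whereas the Enhancer of split bHLH genes used both. All 4 also lay inside a minus-strand TU of 154151 bp that merged CG32816, CR44753, Pgcl and Cyp4g1, whereas 0 of the 7 Enhancer of split bHLH genes overlapped an opposite-strand TU.

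Bearded family genes also occur as a group on 3L, without bHLH genes among them. Of the 6 names looked for there, 4 were matched: Brd (532 bp), BobA (627 bp), Tom (963 bp) and Ocho (1193 bp), with a median of 795 bp. Their span of 30542 bp held 1 other TU, the non-coding CR45978, and none of the 4 overlapped another TU. BobB and BobC were not analysed here.

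**Figure D4:**
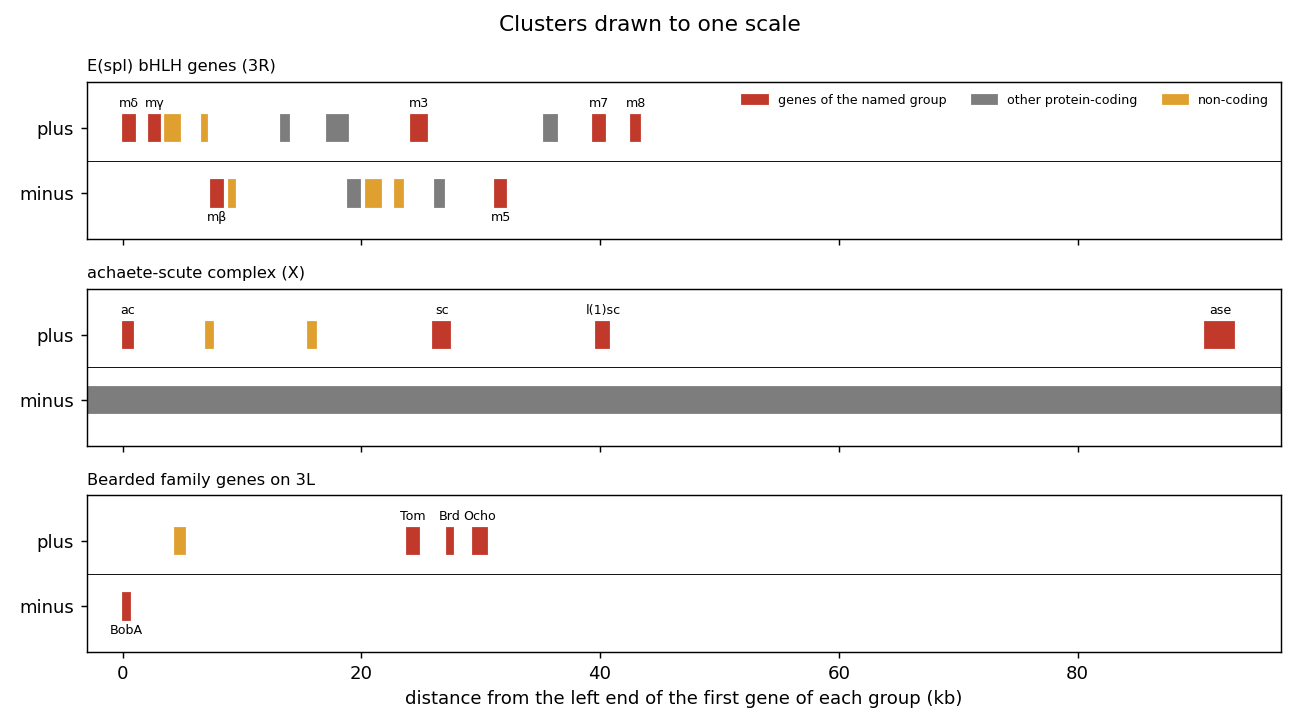
The Enhancer of split bHLH genes, the achaete-scute complex and the Bearded family genes of 3L on one scale in kb, each from the left end of its first gene, with plus-strand units above and minus-strand units below the line. Genes of the named group are red, other protein-coding TUs grey and non-coding TUs orange. The grey bar across the minus strand of the achaete-scute complex is the merged TU of 154151 bp, cut off at both edges of the panel.

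The genes of the Notch pathway list mostly had longer TUs than the Enhancer of split bHLH genes. All 19 genes of the pathway list were found, Nct by its capitalised name, and their median TU length was 6978 bp (1049 to 89273 bp). Of these, 18 exceeded the longest Enhancer of split bHLH gene, and the gamma-secretase subunit gene aph-1, at 1049 bp, did not. Of the other protein-coding TUs, 27.8% were shorter than that longest bHLH gene, so most of them exceeded it too. A single transcript was listed for 2 of the 19, against 47.0% of the other protein-coding TUs. The highest number of transcripts was 10, for gro. An opposite-strand overlap was present for 10 of 19 (52.6%) and a divergent start within 500 bp for 5 of 19 (26.3%). The other protein-coding TUs had 39.8% and 27.3%, and the bHLH genes 0 of 7 for each.

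The receptor gene N measured 37352 bp (X), and the ligand genes Dl and Ser measured 23487 bp and 22178 bp (both 3R). The effector gene Su(H), whose product binds DNA at Notch targets, measured 3847 bp (2L). The gene of its antagonist Hairless, H, measured 6978 bp (3R). The coactivator gene mam measured 69154 bp (2R), in a TU it shared with CG18371 and whose start faced another start at 496 bp. The Delta ubiquitin ligase gene neur measured 19124 bp (3R). The corepressor gene gro (FBgn0001139) bounded the cluster, from 26041736 to 26049911 on the plus strand. At 8176 bp it was longer than all 7 bHLH genes together (6840 bp), and its end overlapped that of the exocyst gene Exo84, on the minus strand, by 181 bp.

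**Figure D5:**
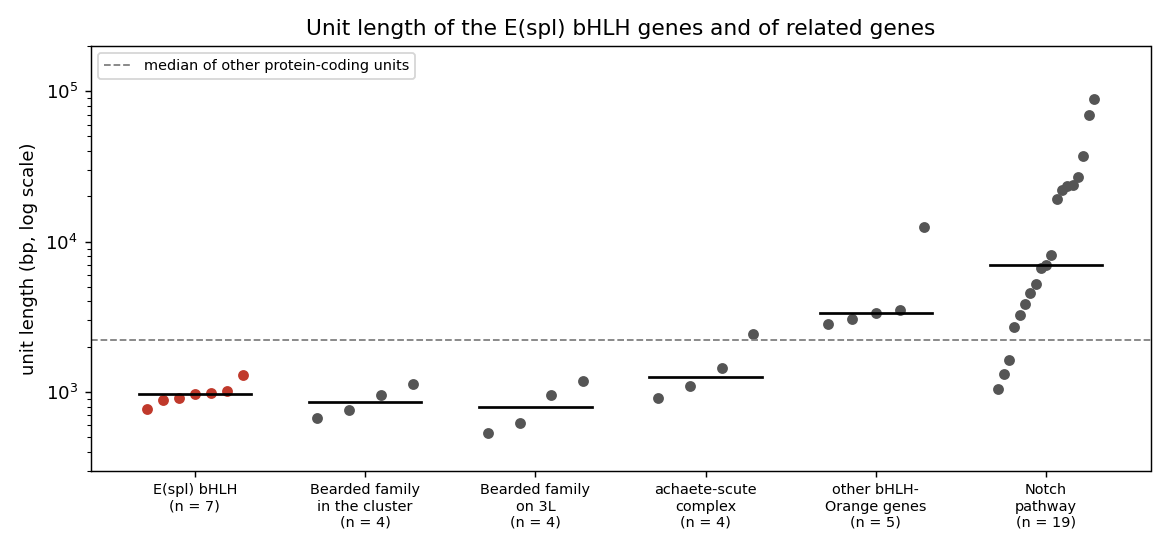
TU length in bp on a log scale for the Enhancer of split bHLH genes (red) and related groups (grey), with 1 point per TU, a black bar at each group's median and a dashed line at 2231 bp, the median of the other protein-coding TUs. The 7 red points lie between 769 and 1305 bp. The 4 Bearded family genes of the cluster lie between 676 and 1137 bp. The 5 other bHLH-Orange genes listed lie from 2841 bp upwards.

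On its other side the cluster was bounded by CG43116 (25995879 to 25996996, minus strand, 1118 bp) and, beyond it, by Nf1, which encodes a regulator of Ras, from 25983013 to 25995737 on the plus strand. The end of Nf1 lay 1883 bp before the start of E(spl)mdelta-HLH. Within 10 kb on each side of the bHLH genes, Nf1, CG43116, gro and Exo84 were the only TUs outside the span.

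The boundaries of the 7 bHLH TUs are those of the gene annotation. Each of the 7 bHLH genes had the same start and end in the RefSeq gene table of the same assembly, with 1 RefSeq transcript each. The starts are annotated starts and were not measured in these embryos.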

How the data were processed

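The file analysed was the TU annotation that the authors deposited, a GFF version 2 export of rtracklayer 1.48.0, per the file headers. It gives the 1-based start, end and strand of each unit in bp and the genes and transcripts in it. It holds no value of any sample, so the 37 samples could be grouped from their labels but not compared, and their depth is unknown. The submitters' processing notes name build dm6, cutadapt 2.8, STAR 2.7.4a and SAMtools 1.20. How genes were merged into TUs is not given in the sources used here.

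Genes were classed by matching symbols, or synonyms that fitted 1 gene of that arm, to RefSeq's gene table for the assembly, which found 17589 of 17698. The reference was every protein-coding TU of the X, 2L, 2R, 3L and 3R except the 7. Edges were measured over all TUs of an arm on either strand, with 0 for overlap. A TU counted as isolated where both ends had 500 bp clear of TUs. The distances were tested on simulated data, where 0 of 3200 values differed from plain loops over 400 units. The members and lists were chosen with earlier results of these data known. The text names the 7 genes, each TU in and beside their span, 3 lists of relatives and the first 8 genes of the pathway list, with aph-1, Nf1 and Exo84 named after their values were seen. Computation used Python 3.11.15, numpy 2.4.6 and matplotlib 3.10.9. No sequence was used here, so motif and protein comparisons were not run.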

Additional observations from a re-analysis of the deposited data

How the results depend on the processing

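The annotation gave no values per sample, so these alternatives concern definitions only. No paired analysis was possible because no per-sample values were analysed. Of 22 alternative values over 9 results, 14 stayed within 1.5 times the reported count or 1 SD of the reported median, the SD being over the 7 genes, their 6 pairs or, for reference medians, the 5 arms. The span has no SD, so any change in it was counted as a move. For the distance between members and the nearest gap, the SD (5251 and 1082 bp) exceeded the median (5005 and 693 bp). Staying within 1 SD therefore says little for these 2 results. The median nearest gap was 1217 bp on the same strand, and also 1217 bp to protein-coding TUs. With the cluster taken up to the outermost unit named E(spl) or gro, the span was 52291 bp. Protein-coding units alone made up 5 of the 10 other TUs. Over all TUs of the 5 large arms the reference median length was 1829 bp, and over TUs of 1 gene and 1 transcript, an alternative chosen after seeing the data, it was 1446 bp. A divergent start within 1000 bp was found for 2 genes, or for 1 where the facing TU had to be protein-coding, which was also chosen later. Isolated genes numbered 2 at 1000 bp and 0 with a minimum length of 2000 bp, which all 7 genes miss. They numbered 7 at 250 bp, against 31.2% of the other protein-coding TUs. They also numbered 7 in an alternative chosen later, when protein-coding neighbours alone were counted. No share of the other TUs is given for that rule, so the count cannot be weighed. The planned comparisons of promoter motifs, protein identity and the WRPW ending, 5 results, were not run because no sequences were used here. What limits these results is the annotation: 1 start per unit, no exons, and no depth.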
